A study of Mus musculus with 8 samples.

Results

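Noradrenaline released by sympathetic nerves acts on brown adipocytes through beta-adrenergic receptors, which couple to the stimulatory G protein and so to the adenylyl cyclases that make cAMP. Cyclic AMP activates protein kinase A, which drives lipolysis and the transcription of *Ucp1* and other thermogenic genes. Phosphodiesterases break cAMP down again, and RGS proteins shorten the active state of G proteins.

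RNA-seq of whole interscapular brown adipose tissue (BAT) was used to ask how transcripts of this pathway compare between mice that lack the RNA binding protein HuR in adipocytes and their littermates. The genes examined were 3 adrenergic receptors (*Adrb1*, *Adrb3* and *Adra1a*), the G protein gene *Gnas*, the cyclases *Adcy3* and *Adcy6*, the phosphodiesterases *Pde3b* and *Pde4b*, and *Rgs2*. They were selected by gene symbol and make up 9 of the 33641 gene symbols and 65 of the 105129 transcripts with an estimated count. All 9 were measured in every library.

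The mice were C57BL/6 and 28 weeks old. The labels give 3 libraries as wild-type BAT (A7, A8 and A12, here called control) and 5 as HuR knockout BAT (A24, A25, A26, A29 and A31, here called *Adipo-HuR-/-*). The knockout carries floxed alleles of *Elavl1*, the gene for HuR, together with a Cre recombinase under the adiponectin promoter, so that only adipocytes are targeted while the RNA comes from all cells of the tissue. Controls of the study were littermates of mixed genotype (wt/wt-cre+, flox/flox-cre− or wt/flox-cre−), and which of these each control library holds is not given in the sources used here. Each library came from its own animal. A legend in the study gives the sizes of the groups the other way round, and the groups used here follow the labels.

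*Elavl1* was examined first as the targeted gene. Counts were scaled to the depth of each library with TMM factors (CPM), and *Elavl1* was at 50.6, 48.0 and 49.2 CPM in A7, A8 and A12. In the group labelled *Adipo-HuR-/-* its level was 61.9, 47.3, 43.4, 61.3 and 61.2 CPM in A24, A25, A26, A29 and A31. The transcript was thus not lower in the libraries labelled as knockout, with a log2 fold change of 0.16 (SE 0.16, edgeR adjusted p = 0.667), and every direction below is between libraries as they are labelled. What part of the *Elavl1* RNA comes from cells other than adipocytes was not measured, and reads of the floxed exons cannot be separated in summed counts.

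Sequencing depth differed between libraries. The control libraries held 60622522, 51751002 and 50673814 counts in A7, A8 and A12. The knockout-labelled group held 18264754, 17558090, 67498055, 50893173 and 58727739 counts in A24, A25, A26, A29 and A31, so that A24 and A25 were the shallowest and their values for low transcripts the least precise.

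The tissue label was checked against marker genes. *Ucp1*, the uncoupling protein of brown adipocytes and the most abundant of 12 brown adipocyte markers per length, was at 4843, 11438 and 9483 CPM in control A7, A8 and A12. It was at 10703, 4251, 7636, 7213 and 9475 CPM in A24, A25, A26, A29 and A31. All 12 brown adipocyte markers and all 8 general adipocyte markers, *Fabp4* the most abundant of these, were present. By the threshold given below 0 of either list passed, where 0.707% of all genes tested did, so lists of this size would seldom hold a call. Their log2 fold changes ran from −0.24 to 1.28 (brown) and from −1.22 to 1.69 (general). At an unadjusted edgeR p under 0.05, 2 brown markers were higher and 0 lower, and 2 general markers were higher and 1 lower. Fewer cells of a type and less RNA per cell cannot be told apart in these data.

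Skeletal muscle RNA was uneven between the libraries. The summed level of 15 muscle markers was 3720 CPM in A7 and 2556 in A8 but 58.9 in A12, and it was 50.6, 31.9, 44.5, 47.1 and 429 in A24, A25, A26, A29 and A31. *Myl1* was the most abundant of these markers per length and was present in every library. Without it the sums were 3493, 2320 and 6.498 CPM in A7, A8 and A12 and 11.6, 4.13, 24.7, 4.96 and 381 CPM in A24, A25, A26, A29 and A31, and *Pvalb* was at 0 counts in A12, A24, A25, A26 and A29. All 15 markers had a negative fold change and 2 of 15 passed the threshold (*Myl1* and *Myh7*). A7, A8 and A31 therefore stand apart, and 2 of these 3 libraries are controls. For some genes below the value without these libraries is given as well, which leaves a single control library whose spread is taken from the other group.

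None of the 9 genes differed between the groups by the threshold used here, an adjusted p of at most 0.05 with a fold change of at least 1.5. The edgeR quasi-likelihood test called 0 of 9, against 105 of 14851 genes tested (0.707%), 36 of them higher and 69 lower. DESeq2 also called 0 of 9, against 5.54% of all genes, and limma voom 0 of 9, against 1.06%. At an unadjusted p under 0.05 edgeR gave 1 of 9, against 17% of all genes, and this gene was *Pde3b*. In 0 of 9 genes were the groups free of overlap, against 11.5% of all genes tested. The fold change was positive in 7 of the 9 and negative in 2, with a median log2 fold change of 0.20 beside 0.00 for all genes tested. Fold changes depend on the scaling, since total counts in place of TMM moved the median of all genes by 0.23 and gave 96 genes higher and 25 lower.

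**Figure D1:**
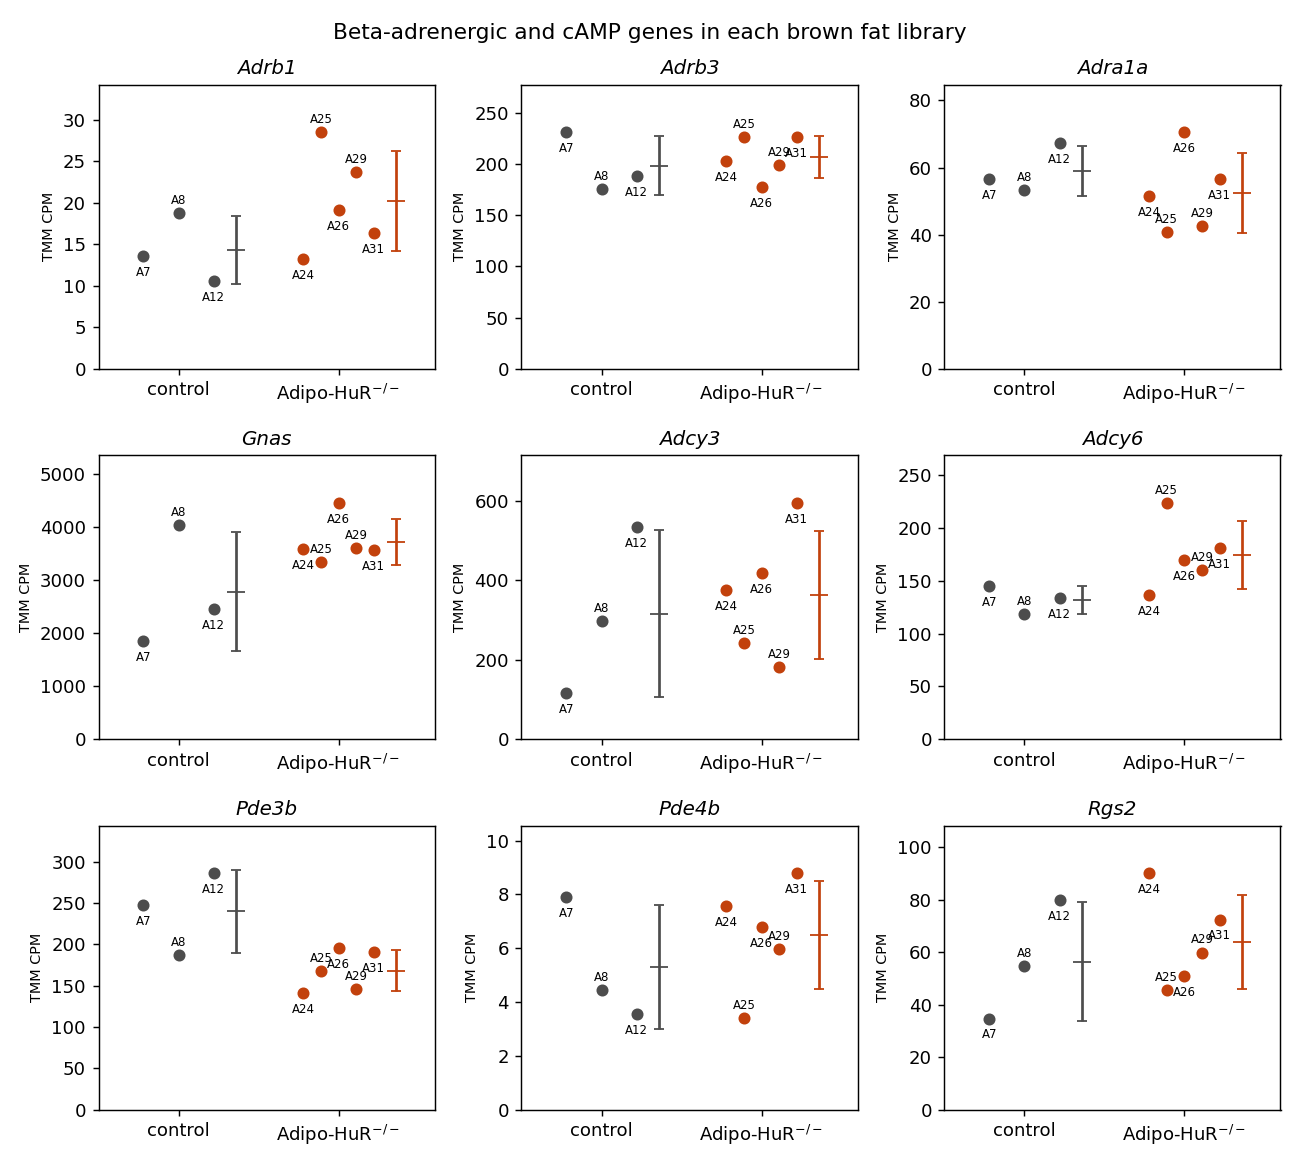
Levels of the 9 genes in each library, in TMM CPM on linear axes that start at 0, with 3 control libraries in grey and 5 libraries labelled *Adipo-HuR-/-* in orange. Horizontal bars are group means with SD. The groups overlap in every panel, *Adrb3* lies between 176 and 231 CPM and *Adcy3* between 115 and 595 CPM.

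*Adrb3* encodes the beta-3 receptor, the main beta-adrenergic receptor of rodent brown adipocytes (chr8:27225776-27250616, minus strand; positions are those of GENCODE M21 on GRCm38). It was at 231, 176 and 188 CPM in A7, A8 and A12, and at 203, 226, 177, 199 and 226 in A24, A25, A26, A29 and A31. The lowest and the highest library were both controls, so that the control range enclosed the other group entirely. The group means were 198 ± 28.9 CPM (SD, n = 3) and 206.3 ± 20.5 CPM (SD, n = 5). Its log2 fold change was 0.06 (SE 0.16, edgeR adjusted p = 0.891), a difference smaller than its error. Over 19 alternatives the fold change ran from −0.02 without A8 to 0.28 with total counts as the scaling. *Adrb3* was the steadiest of the 9 genes. Its SD within groups was 0.17 on the log2 scale, beside a median of 0.28 for the 384 genes within 0.5 log2 units of its mean level.

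*Adrb1* encodes the beta-1 receptor, which responds to noradrenaline in several cell types of the tissue, brown fat precursors among them (chr19:56722199-56733113, plus strand). It was at 13.6, 18.7 and 10.6 CPM in A7, A8 and A12, and at 13.2, 28.5, 19.1, 23.6 and 16.3 CPM in A24, A25, A26, A29 and A31. A25, A26 and A29 lay above every control, while A24 and A31 lay within the control range. The means were 14.3 ± 4.11 CPM (SD, n = 3) and 20.2 ± 6.03 CPM (SD, n = 5). The log2 fold change of 0.50 (SE 0.27, edgeR adjusted p = 0.378) did not pass. It stayed positive in all 19 alternatives, between 0.32 and 0.99. The highest library, A25, is also the shallowest, with 600 counts of *Adrb1*.

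*Adra1a* encodes the alpha-1A receptor, which couples to Gq and calcium release and not to cAMP (chr14:66635251-66771168, plus strand). It was at 56.6, 53.2 and 67.3 CPM in A7, A8 and A12. In A24, A25, A26, A29 and A31 it was at 51.5, 40.8, 70.5, 42.5 and 56.6 CPM. A25 and A29 were lowest, A26 was the highest of all 8 libraries, and the groups overlapped. With a log2 fold change of −0.17 (SE 0.20, edgeR adjusted p = 0.709) it did not pass, and the value turned to 0.04 with total counts as the scaling. With 1 library left out it ran from −0.30 without A26 to −0.07 without A12, and it was −0.39 without A7, A8 and A31.

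Levels of different genes were compared per length, as CPM per kilobase of transcript. Among the adrenergic receptors *Adrb3* came first with a mean of 99.0 over the 8 libraries. *Adra1a* followed at 14.3, *Adrb1* at 6.08 and *Adra1d* at 3.02. *Adrb3* was 24.5, 13.4 and 25.6 times as high as *Adrb1* in A7, A8 and A12. The ratio was 20.8, 11.8, 13.2, 12.4 and 20.1 in A24, A25, A26, A29 and A31. These ratios varied by library within both groups, with *Adrb1* as the part that moved and *Adrb3* nearly level.

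*Adrb3* transcripts differ in where the coding sequence ends. Adrb3-201 and Adrb3-203 share their coding parts (400 codons), while Adrb3-202 reads into a different last exon and has 404 codons. The 3′ ends of the coding sequence are shown because they tell the receptor forms apart, with the stop codon in capitals, on the minus strand of GRCm38 (chr8:27226754-27226793 for Adrb3-201 and chr8:27226845-27226896 for Adrb3-202).
Adrb3-201: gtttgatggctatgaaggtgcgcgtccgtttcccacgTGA
Adrb3-202: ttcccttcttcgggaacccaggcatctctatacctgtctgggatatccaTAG

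Adrb3-202 took a small part of the estimated counts of the coding *Adrb3* transcripts. Its share was 2.24%, 1.27% and 2.38% in A7, A8 and A12, and 4.25%, 6.29%, 3.07%, 2.62% and 2.54% in A24, A25, A26, A29 and A31. All 5 libraries labelled *Adipo-HuR-/-* were above all 3 controls, with the 2 shallowest libraries highest and A31 at the edge of the control range. The difference of 1.79 percentage points did not pass the two-sided exact permutation test over the 56 arrangements of the libraries (p = 0.107; adjusted over 5 shares, 0.268), and without A24 and A25 it was 0.778 points. The share of Adrb3-203, which has a shorter 5′ and 3′ end than Adrb3-201, was 48.6% in A7, 41.5% in A8, 49.1% in A12, 34.5%, 44.5%, 27.1%, 37.6% and 35.6% in A24, A25, A26, A29 and A31. A25 lay within the control range and the other 4 lay below it (exact permutation p = 0.0714; adjusted over 5 shares, 0.268). These shares were chosen after the values were seen, and they are estimates, since the exons of these transcripts overlap.

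*Gnas* encodes Gsα, the subunit that carries the signal from beta receptors to adenylyl cyclase (chr2:174284320-174346744, plus strand). It was at 1856, 4036 and 2452 CPM in A7, A8 and A12, and at 3590, 3334, 4459, 3607 and 3568 in A24, A25, A26, A29 and A31. A7 and A12 lay below all 5 libraries labelled *Adipo-HuR-/-* whereas A8 lay above 4 of them. The means were 2781 ± 1127 CPM (SD, n = 3) and 3712 ± 432 CPM (SD, n = 5), so the spread was on the control side. The log2 fold change was 0.42 (SE 0.26, edgeR adjusted p = 0.463) and ranged from 0.19 without A7 to 0.79 without A8. A8 has the smallest TMM factor, 0.763, which raises its CPM. With total counts in place of TMM the log2 fold change of *Gnas* was 0.70 (edgeR adjusted p = 0.0978). *Gnas* is overlapped on the opposite strand by *Gm20721* (492.6 counts in A24 and 1759 in A26), and the use of strand in counting is not stated in the sources used here.

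*Gnas* has several first exons, of which some are imprinted, and the transcripts were grouped by where they start. Transcripts from the Gsα first exon held between 98.1% and 98.9% of *Gnas* counts in the 8 libraries. Those from the exon 1A region held 0.900% to 1.70%. The 5 transcripts starting in the Nesp region held at most 0.0794%, and the 7 starting in the XLαs region at most 0.00898%, with 0 counts in A12. The *Gnas* signal in this tissue was therefore nearly all Gsα in both groups.

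Gsα itself is spliced into a long form that contains a cassette exon and short forms that skip it. Gnas-208, the long form, has 394 codons. Gnas-207 and Gnas-206 skip the exon and have 380 and 379 codons, since the next exon starts 3 bases earlier in Gnas-207. The cassette exon of 45 bases (chr2:174336747-174336791, plus strand, GRCm38) and the start of the exon that follows it in Gnas-207 (chr2:174341650-174341673, with the 3 extra bases in capitals) are shown because they define the forms. In the annotated frame the first of these bases completes the codon before, so the 3 bases are not read as a stop codon.
Gnas cassette exon: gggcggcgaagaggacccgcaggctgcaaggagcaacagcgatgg
Gnas-207 next exon: TAGtgagaaggccactaaagtgca

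The long form made up 58.1% of the counts of these 3 transcripts in A7, 57.6% in A8 and 57.7% in A12. It made up 58.0%, 58.2%, 46.5%, 52.9% and 50.6% in A24, A25, A26, A29 and A31. The controls were nearly equal, A24 and A25 were at the same level, and A26, A29 and A31 were lower, so that the groups overlapped through A24 and A25. Means were 57.8 ± 0.268% (SD, n = 3) and 53.2 ± 4.996% (SD, n = 5), with a two-sided exact permutation p of 0.268 (adjusted over 5 shares, 0.335). The difference of −4.52 percentage points was −2.83 without A26 and −7.75 without A24 and A25. A26, which had the lowest long form share, also had the highest *Gnas* level. Among the short forms, the share of Gnas-207 lay between 49.2% in A24 and 57.0% in A7, with both groups spread over this range (exact permutation p = 0.5, the same after adjustment). None of the 3 transcripts passed on its own, with log2 fold changes of 0.22 for Gnas-208 (SE 0.25), 0.49 for Gnas-207 (SE 0.28) and 0.53 for Gnas-206 (SE 0.33).

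**Figure D2:**
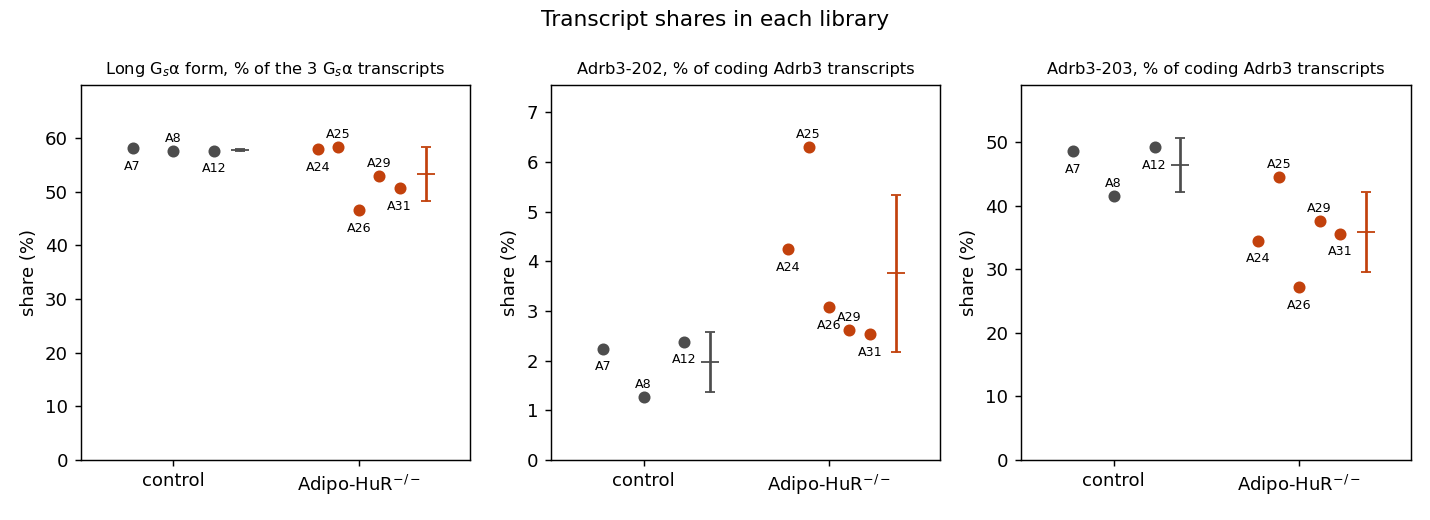
Shares in each library, in percent on axes that start at 0: the long Gsα form among Gnas-206, Gnas-207 and Gnas-208 (left), Adrb3-202 among the coding *Adrb3* transcripts (middle), and Adrb3-203 among the same transcripts (right). Bars are means with SD over 3 control libraries and 5 libraries labelled *Adipo-HuR-/-*. The long Gsα form lies near 58% in A7, A8, A12, A24 and A25 and lower in A26, A29 and A31.

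*Adcy3* encodes adenylyl cyclase 3, which makes cAMP from ATP downstream of Gsα (chr12:4133103-4213525, plus strand). It was at 115, 297 and 534 CPM in A7, A8 and A12, and at 375, 242, 419, 181 and 595 in A24, A25, A26, A29 and A31. The lowest library was a control and the highest was labelled *Adipo-HuR-/-*, 5.16 times apart, and both groups ran from low to high. Means were 316 ± 210 CPM (SD, n = 3) and 363 ± 162 CPM (SD, n = 5). Between the groups the log2 fold change was 0.20 (SE 0.48, edgeR adjusted p = 0.870). It became −0.20 without A7, −0.06 without A31 and −0.81 without A7, A8 and A31 (edgeR adjusted p = 0.430), so no direction can be read from it. *Adcy3* was the least steady of the 9 genes, with an SD within groups of 0.85 on the log2 scale that was at least as large as in 98.7% of the 238 genes of like level. The gene overlaps *Cenpo* on the opposite strand, which was low beside it (315.9 counts in A7, where *Adcy3* had 7127, and 158 in A12, where *Adcy3* had 25572).

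*Adcy6* encodes adenylyl cyclase 6, a form inhibited by calcium (chr15:98589973-98610076, minus strand). It was at 145, 118 and 133 CPM in A7, A8 and A12, and at 137, 224, 170, 160 and 181 CPM in A24, A25, A26, A29 and A31. A25, A26, A29 and A31 lay above every control and A24 lay among the controls. The means were 132 ± 13.2 CPM (SD, n = 3) and 174 ± 32.1 CPM (SD, n = 5). The log2 fold change was 0.40 (SE 0.18) with an edgeR adjusted p of 0.298, and it was positive in all 19 alternatives, between 0.29 and 0.63. Per length *Adcy3* was above *Adcy6* in mean level (107 against 26.2 CPM per kilobase).

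*Pde3b* encodes phosphodiesterase 3B, the enzyme through which insulin lowers cAMP in adipocytes (chr7:114415281-114539251, plus strand). It was at 247, 186 and 286 CPM in A7, A8 and A12, and at 141, 167, 195, 146 and 191 in A24, A25, A26, A29 and A31. A7 and A12 were higher than all 5 libraries labelled *Adipo-HuR-/-*, and A8 lay just below A26 and A31, which is the only overlap. Means were 240 ± 50.1 CPM (SD, n = 3) and 168 ± 24.7 CPM (SD, n = 5). Its log2 fold change of −0.51 (SE 0.19) was the largest in size of the 9, but the edgeR adjusted p of 0.195 did not pass. It was negative in all 19 alternatives, from −0.82 to −0.30, with adjusted p between 0.0901 and 0.516. Without the libraries with muscle RNA (A7, A8 and A31) it was −0.82 (edgeR adjusted p = 0.313).

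Nearly all *Pde3b* counts fell on the full-length transcript Pde3b-201, which has 1099 codons. On the transcript scale it was at 247, 195 and 294 CPM in A7, A8 and A12 and at 139, 159, 187, 144 and 192 CPM in A24, A25, A26, A29 and A31. The lowest control, A8, lay just above A31, the highest library of the other group. The log2 fold change was −0.58 (SE 0.18, edgeR adjusted p = 0.455 over 41808 transcripts).

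*Pde4b* encodes a cAMP-specific phosphodiesterase of the PDE4 family (chr4:102087543-102607259, plus strand). It was low, at 7.90, 4.43 and 3.55 CPM in A7, A8 and A12 and at 7.56, 3.42, 6.77, 5.99 and 8.79 CPM in A24, A25, A26, A29 and A31. The value of A25 rests on 72 counts and that of A31 on 580. Both groups had high and low libraries, and the log2 fold change was 0.30 (SE 0.33, edgeR adjusted p = 0.704). It moved between 0.08 without A12 and 0.71 without A7. It was 0.74 without A7, A8 and A31, and 0.78 with the muscle score as a covariate (edgeR adjusted p = 0.427). Per length *Pde3b* exceeded *Pde4b* in mean level (31.1 against 1.74 CPM per kilobase), so the PDE3 gene was the more abundant of the pair in RNA.

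*Rgs2* encodes a regulator of G protein signalling that acts mainly on Gq and whose transcription responds to cAMP in many cells (chr1:143999338-144004161, minus strand). It was at 34.8, 54.6 and 79.8 CPM in A7, A8 and A12, and at 90.1, 45.7, 50.8, 59.9 and 72.4 in A24, A25, A26, A29 and A31. A7 was the lowest library and A24 the highest, with the rest of both groups between them. For *Rgs2* the log2 fold change was 0.18 (SE 0.29, edgeR adjusted p = 0.804). It was −0.08 without A7 and −0.38 without A7, A8 and A31, and it was 0.01 without A24, so no direction can be read from it.

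Over all 9 genes the order of mean per-length level was *Gnas* (1959 CPM per kilobase), *Adcy3* (107), *Adrb3* (99.0), *Pde3b* (31.1), *Rgs2* (29.9), *Adcy6* (26.2), *Adra1a* (14.3), *Adrb1* (6.08) and *Pde4b* (1.74). *Gnas* lay above *Adcy3* in 8 of 8 libraries and *Adrb3* above *Pde3b* in 8 of 8. Neighbours that did not separate were *Adcy3* and *Adrb3*, with *Adcy3* higher in 4 of 8 libraries, *Pde3b* and *Rgs2*, with *Pde3b* higher in 5 of 8, and *Rgs2* and *Adcy6*, with *Rgs2* higher in 6 of 8. The chain from receptor to cyclase thus had its most abundant RNA at the G protein in both groups.

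Of the 65 transcripts of these genes, 39 passed the filter on low counts. The edgeR test called 0 of 39 at the threshold, against 4 of 41808 transcripts (0.00957%). At an unadjusted p under 0.05, 8.17% of all transcripts passed, and among those of the 9 genes Pde3b-201 was joined by Gnas-213 and Adcy3-208, which retain introns (log2 fold changes of 0.90 and 0.93, edgeR adjusted p of 0.553 and 0.565). The leading *Adcy3* transcript, Adcy3-201, had a mean of 246 CPM in controls and 259 in libraries labelled *Adipo-HuR-/-*, and Adcy3-207 had 44.8 and 48.4. Of *Adra1a*, Adra1a-203 (427 codons) and Adra1a-201 (466 codons) led, with log2 fold changes of −0.10 (SE 0.24) and −0.62 (SE 0.30, edgeR adjusted p = 0.670). Of *Adrb3*, Adrb3-201 and Adrb3-203 led, with log2 fold changes of opposite sign, 0.21 (SE 0.14) and −0.37 (SE 0.24). The leading pair of *Pde4b* were Pde4b-207 (0.39, SE 0.45) and Pde4b-203 (0.06, SE 0.68), and those of *Rgs2* were Rgs2-202 (0.06, SE 0.33) and Rgs2-201 (0.87, SE 0.42, edgeR adjusted p = 0.670), all as log2 fold changes.

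The other genes of the pathway were read from the same fit. Of 175 further genes in 12 lists, 148 were tested, with a median log2 fold change of −0.02. By edgeR 0 of the 148 were called higher and 1 lower, where 0.707% of all genes tested were called. At that share a short list would seldom hold a call, so the counts of 0 in the lists below say little. DESeq2 called 9 of the 148, where it called 5.54% of all genes. These were *Akap13*, *Gnai1*, *Gnao1*, *Gng2*, *Maoa*, *Pde4c*, *Pde8b*, *Pkia* and *Rgs11*. At an unadjusted p under 0.05 edgeR gave 12 higher and 22 lower, beside 7.64% and 9.41% of all genes tested. Groups did not overlap in 8 higher and 9 lower genes of the 148, where the same was true of 5.37% and 6.09% of all genes tested.

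**Figure D3:**
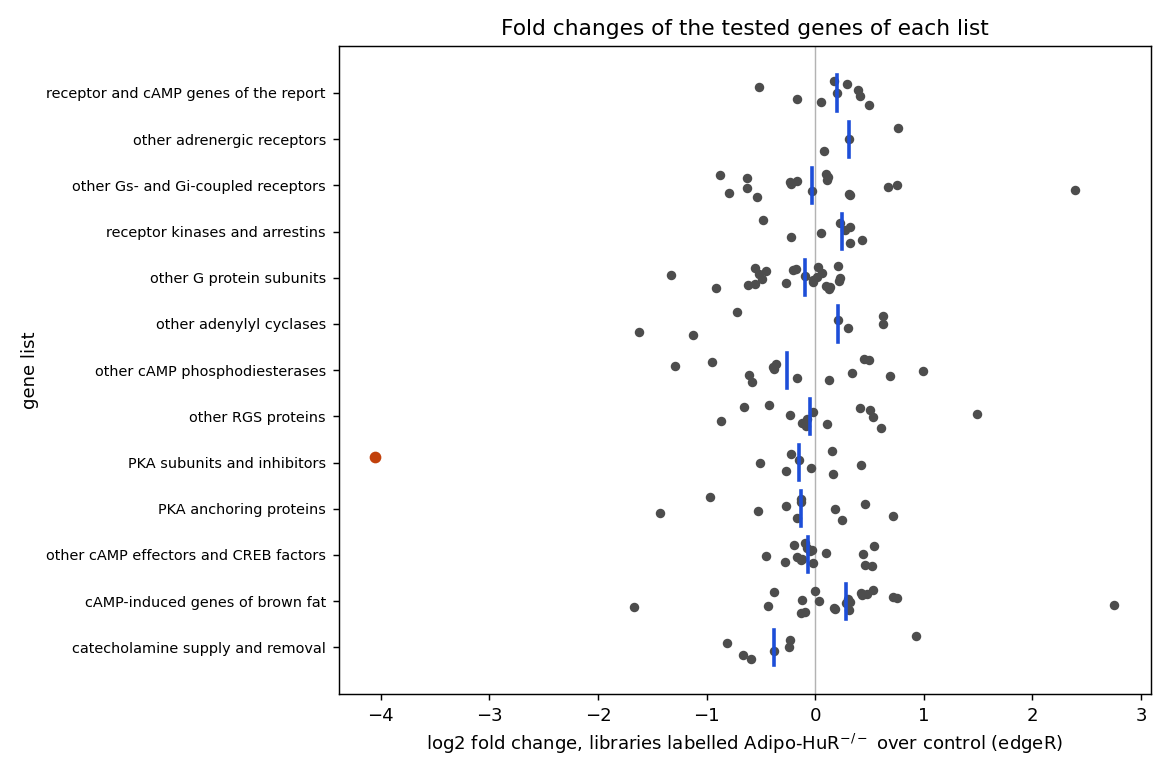
Log2 fold changes from edgeR for the tested genes of each list, each point 1 gene, between libraries labelled *Adipo-HuR-/-* (5) and control (3). Blue bars are list medians and the orange point is the gene past the threshold, *Pkia* at −4.05. The medians lie between −0.38 and 0.32.

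The gene past the threshold was *Pkia*, which encodes a heat-stable inhibitor of protein kinase A that is abundant in muscle. It was at 17.1, 9.17 and 1.504 CPM in A7, A8 and A12 and at 0.226, 0.332, 0.385, 0.284 and 1.38 CPM in A24, A25, A26, A29 and A31. As with the muscle marker sums, A7 and A8 were high and A31 was the highest of its group. The log2 fold change was −4.05 (SE 0.74, edgeR adjusted p = 0.0444). With the muscle score as a covariate it was −2.21 and still passed (edgeR adjusted p = 0.0347). It was −2.25 without A7, A8 and A31 (edgeR adjusted p = 0.212), and over 18 alternatives the adjusted p ran from 2.52e-05 to 0.212, above 0.05 in 10. The call was also lost without A7 (0.130), A8 (0.0582), A24 (0.0676), A25 (0.120), A26 (0.102) or A29 (0.103), each an edgeR adjusted p.

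Around the receptors, 0 of 3 tested adrenergic receptors and 0 of 17 tested Gs- and Gi-coupled receptors passed in either direction. *Adra1d* had a log2 fold change of 0.32 (edgeR adjusted p = 0.711) and *Adra2b*, at most 0.508 CPM in any library, of 0.77 (edgeR adjusted p = 0.384). *Adra2a* was at no more than 3 counts in every library. *Adora1*, the adenosine A1 receptor that couples to Gi, had a mean of 110 ± 22.0 CPM in controls and 76.0 ± 14.0 in the other group (log2 fold change −0.54, edgeR adjusted p = 0.188), and without A7, A8 and A31 the fold change was −0.19 (edgeR adjusted p = 0.793). *Ptger3*, a Gi-coupled prostaglandin receptor, was level per length with *Adora1* at the head of its list (19.14 and 19.12 CPM per kilobase). Its log2 fold change was −0.79 (edgeR adjusted p = 0.262). This rests on A7, where *Ptger3* was at 113 CPM and in the other libraries at 47.4 CPM or less, and it was −0.14 without A7 and −0.12 without A7, A8 and A31. *Gpr3*, a receptor that signals through Gs without a ligand, was near the limit of detection, at 1 count in A7 and at most 0.398 CPM in any library (log2 fold change 2.39, edgeR adjusted p = 0.111). Of the 8 receptor kinases and arrestins 0 passed. *Grk2* and *Grk3*, kinases that desensitise beta receptors, were higher in 5 of 5 libraries labelled *Adipo-HuR-/-* than in any control, at log2 fold changes of 0.32 (SE 0.13, edgeR adjusted p = 0.252) and 0.43 (SE 0.16, edgeR adjusted p = 0.215).

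Of 23 tested genes for G protein subunits and their chaperones 0 passed, and the smallest p values belonged to *Gng2* and *Gng12*, which encode gamma subunits. *Gng2* was at 4.63, 1.92 and 4.10 CPM in A7, A8 and A12 and between 1.07 and 1.74 CPM in the other group (log2 fold change −1.33, edgeR adjusted p = 0.0781). It passed with DESeq2 (adjusted p = 0.00385) and with limma voom (adjusted p = 0.0468). *Gng12* had means of 79.3 and 54.1 CPM without overlap (−0.55, edgeR adjusted p = 0.0978). *Gnb2* was the most abundant per length (log2 fold change 0.23, SE 0.20). Of 7 other cyclases 0 passed, with *Adcy4* the most abundant (0.31, SE 0.21) and *Adcy1* at a low level (−1.13). *Adcy2*, also low, was at 2.01, 1.37 and 0.230 CPM in A7, A8 and A12, at 0.757 in A31 and between 0.208 and 0.356 in the rest. Its log2 fold change of −1.62 (edgeR adjusted p = 0.224) became 0.29 without A7, A8 and A31 and 0.02 with the muscle score as a covariate.

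Of 14 other phosphodiesterases 0 passed. *Pde8b* had means of 1.59 and 0.827 CPM (log2 fold change −0.95, edgeR adjusted p = 0.135), *Pde4c* of 3.30 and 6.60 CPM (0.99, edgeR adjusted p = 0.156), and *Pde4d*, the most abundant, of 78.1 and 60.1 CPM (−0.38, edgeR adjusted p = 0.540). Of 14 other RGS genes 0 passed, with *Rgs5* the most abundant (−0.12, SE 0.16), *Rgs11* at 1.49 (edgeR adjusted p = 0.128) and *Rgs6* at −0.87 (edgeR adjusted p = 0.285), all as log2 fold changes. The groups of *Pde8b*, *Pde4c* and *Rgs6* did not overlap.

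Downstream of cAMP, *Prkar2b*, the main regulatory subunit of protein kinase A in fat, was the most abundant of 9 kinase subunits and inhibitors, at 799 ± 242 CPM in controls and 722 ± 113 in the other group (log2 fold change −0.15, edgeR adjusted p = 0.786). *Prkar2a* had a log2 fold change of −0.51 (edgeR adjusted p = 0.256). Of 11 anchoring proteins 0 passed. *Akap1*, which tethers the kinase to mitochondria, was the most abundant (log2 fold change 0.25, SE 0.17). *Akap13* was at −0.97 (edgeR adjusted p = 0.0920) and *Akap10* at 0.46 (edgeR adjusted p = 0.145). With DESeq2 *Akap13* passed (adjusted p = 0.00869), as also without A8 (edgeR adjusted p = 0.0254), but with no other single library left out. A8, at 55.3 CPM, was the only control that overlapped the other group, where A25 was at 60.9 CPM. Of 16 other effectors and CREB factors 0 passed, with *Mapk14* at 0.54 (edgeR adjusted p = 0.158) and *Atf2* at −0.45 (edgeR adjusted p = 0.204).

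Genes listed as induced by cAMP in brown fat were read as well, and cAMP itself was not measured. Of 21 tested 0 passed. Of these, 14 had a positive and 7 a negative fold change, beside 7438 and 7413 of all genes tested. The median log2 fold change was 0.28, beside 0.001 for all genes tested. *Ucp1* had −0.13 (SE 0.35, edgeR adjusted p = 0.889), *Gadd45g* 0.76 (edgeR adjusted p = 0.216) and *Nr4a3* −1.67 (edgeR adjusted p = 0.248). The *Nr4a3* value rests on A12, at 38.6 CPM beside at most 9.76 in any other library, and was −0.17 without it. Of 7 tested genes for catecholamine supply and removal 0 passed. *Maoa*, which encodes the monoamine oxidase that degrades noradrenaline, came closest to the threshold of all genes in the 12 lists other than *Pkia*. It was at 18.5, 18.03 and 16.9 CPM in A7, A8 and A12 and at 12.2, 10.7, 9.90, 12.7 and 10.8 CPM in A24, A25, A26, A29 and A31. Every control was above every library of the other group, with a log2 fold change of −0.66 (SE 0.14, edgeR adjusted p = 0.0621; DESeq2 adjusted p = 0.00122). Without A7, A8 and A31 it was −0.57 (edgeR adjusted p = 0.389). *Slc22a2* had a log2 fold change of −0.81 (edgeR adjusted p = 0.245), and *Dbh* was at no more than 3 counts in every library.

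Patterns across the 8 libraries were compared by correlation of log2 CPM over 14851 genes, as a description that includes the differences of depth and makeup the libraries share. The genes closest to *Adrb3* were *Fxr2* (Pearson r = 0.931, Spearman rho = 0.929), *Ppp1r15a* (0.920 and 0.857) and *Rftn1* (0.911 and 0.952). Those closest to *Adrb1* were *Nrgn* (0.966 and 1.0), *Zfp956* (0.956 and 0.929) and *Rtn1* (0.955 and 0.929). *Nrgn* was at most 2.28 CPM and *Rtn1* at most 0.3796 CPM, so the genes closest to *Adrb1* include low ones.

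Cells other than adipocytes also carry parts of this pathway, and their markers were read beside it. Of 8 endothelial markers 0 passed, where 0.707% of all genes tested did. All 8 had a positive fold change, beside 7438 of 14851 genes tested. At an unadjusted edgeR p under 0.05, 2 were higher, and 2 were higher without overlap of the groups, beside 7.64% and 5.37% of all genes tested. The summed level of the endothelial markers was 468 CPM in A7, 407 in A8, 516 in A12, 400.3, 515, 586, 627 and 585 in A24, A25, A26, A29 and A31, with *Egfl7* the most abundant. Of 8 mural cell markers 0 passed (sums of 126 to 162 CPM, *Cspg4* the most abundant). The sums of macrophage and lymphocyte markers lay between 29.3 and 109 CPM (*Lyz2*), those of fibroblast and precursor markers between 111 and 265 CPM (*Ly6a*), and those of Schwann cell and nerve markers between 64.4 and 117 CPM (*Pmp22*), with 0 genes of these lists past the threshold and the neuronal marker *Prph* at no more than 3 counts in every library. The part of these cells in the levels of *Adrb1*, *Adcy6* and *Gnas* was not tested.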

How the data were processed

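RNA-seq was performed by the authors on poly(A) RNA of BAT from 8 mice, and reads were mapped with CLC Genomics Workbench per the study's methods. The deposited files hold estimated counts per transcript (expected counts, not whole numbers), and the program that wrote them, its build and its use of strand are not given in the sources used here. Here they were summed per gene symbol and rounded. Genes kept by filterByExpr (14851) were tested with edgeR 4.0.16 (TMM, quasi-likelihood F-test, Benjamini-Hochberg over all genes kept) in R 4.3.3, with DESeq2 1.42.0 and limma 3.58.1 as alternatives, after tests on simulated data. The reported test has no covariate. Each SE of an edgeR log2 fold change was derived from the test, as the size of the fold change over the square root of its F statistic. Per-length levels used GENCODE M21 transcript lengths, matched for 103723 of 105129 identifiers. Shares were compared with two-sided exact permutation tests, whose smallest p is 0.0179 here. Library totals ran from 17558090 to 67498055 counts.

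Of each wider list, genes past the threshold, the gene with the highest per-length level and the 2 with the smallest p were named with 1 exception, of each marker list the most abundant, and of genes with several well-covered transcripts the leading ones. Of 5 shares tested 4 are reported, all of them transcript shares chosen after their values were seen, and the share left out was the only planned one. Other names were also chosen after their values were seen. The 9 genes and all lists were chosen with earlier results of these data known. Alternatives covered normalization, test, filter, threshold, a muscle score, the leading transcript and libraries left out.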

Additional observations from a re-analysis of the deposited data

Results flagged for a closer look

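Among the 5 libraries labelled *Adipo-HuR-/-*, 47 values were examined for a library far from the other 4, and 3 had one, where chance gives about 1 in 20. *Gnas* was at 4459 CPM in A26, with the other 4 between 3334 and 3607 CPM, and the controls ran from 1856 to 4036 CPM. *Adcy2*, a low adenylyl cyclase gene, was at 0.757 CPM in A31, where the median of the 5 was 0.332 CPM. *Pkia* was at 1.38 CPM in A31, beside the same median of 0.332 CPM. A31 is the library of this group with skeletal muscle RNA, at a muscle marker sum of 429 CPM, and the part of that RNA in these values of A31 was not tested.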

How the results depend on the processing

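The 9 genes gave 0 calls in all 21 alternatives. Of 171 fold changes recomputed for them 164 kept their sign, and the lowest adjusted p was 0.0901. The sign turned for *Adra1a* with total counts (0.0408), for *Adcy3* and *Rgs2* without A7, A8 and A31 (−0.81 and −0.38) and without A7 (−0.20 and −0.0786), for *Adrb3* without A8 (−0.0173) and for *Adcy3* without A31 (−0.06). With 1 library left out the fold change ran from −0.0173 to 0.1795 for *Adrb3*, from −0.20 to 0.8138 for *Adcy3* and from −0.0786 to 0.5132 for *Rgs2*. The transcripts of the 9 genes gave 0 calls in all 12 alternatives. The share of Adrb3-203 differed by −13.0 percentage points without A8 and by −12.7 without A25, where the exact permutation p was 0.0476 and 0.0286, but p was 0.1905 without A7 or A12, 0.114 without A24 or A31 and 0.0857 without A26 or A29.

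The count of all genes called, 105, was 823 with DESeq2, 655 with the edgeR likelihood ratio test, 14 with the muscle score as a covariate, 16 with the leading transcript of each gene, 5 without A24 and A25, 4 without A7, A8 and A31, 469 at an adjusted p of 0.1, and 10 to 190 with 1 library left out (10 without A26, 13 without A7, 14 without A29, 15 without A25, 17 without A31, 190 without A12). With total counts 96 were higher and 25 lower, against 36 and 69. The single wider pathway gene became 9 with DESeq2, 7 with the likelihood ratio test, 4 at an adjusted p of 0.1, 0 with at least 10 counts in every library, with the leading transcript, without A24 and A25 or without A7, A8 and A31, and 0 to 3 with 1 library left out (3 without A8, 2 without A12). The cause of these moves was not tested.

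Limits: 3 against 5 animals leave small differences undetected, and A24 and A25 hold the fewest counts. Transcript shares are estimates. RNA levels say nothing of receptor protein, cAMP or its turnover. The targeted gene *Elavl1* was no lower in libraries labelled as knockout, and muscle RNA was uneven between the groups. No paired analysis was made, since the labels give neither a litter nor a shared number that would pair the groups.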
